A study of Rattus norvegicus with 35 samples.

Results

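Chemokines and interleukins are small secreted proteins through which cells attract and instruct one another, and each acts through a receptor on the surface of the responding cell. The members described here are the 71 genes, of 10411 measured by name, whose platform symbol is Ccl, Cxcl, Ccr, Cxcr or Il followed by a digit, with Ccl5 and Cxcl13 left out. They comprise 19 chemokines, 9 chemokine receptors, 21 interleukins, 2 secreted inhibitors of interleukins and 20 interleukin receptor chains. The rule uses the symbol alone and no measured value, but it was set with earlier results of these data known. They were measured in 24 rat mammary tumours, which the labels call frozen and induced with N-methyl-N-nitrosourea (NMU), and in 11 normal rat mammary glands. NMU is an alkylating carcinogen that is used to induce mammary tumours in rats. Of the normal glands, 8 are titled NewN and 3 are titled X27.1N, X28.1N and Young. The labels give no strain, age, sex, dose or time since treatment, do not say whether the normal glands had been exposed to NMU, and name no animals, and nothing shows that the samples came from separate animals, so p-values here reflect sample-to-sample spread that can be partly technical.

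Each sample was read on an oligonucleotide array on which several short probes for a transcript, together a probe set, give 1 signal. Array medians of signal were 158 to 176 in tumours and 163 to 172 in normal glands. Signals under 41.6, the 10th percentile of all values, were set to that floor before log2 was taken, so changes of dim genes can be understated. The lower end of the signal range differed between the groups: the 10th percentile of an array was 39.1 to 48.3 in tumours, against 33.4 to 42.3 in normal glands. The part of this difference in the rises of dim genes was not tested. The groups were compared with limma, and a gene was called where its Benjamini-Hochberg adjusted p over all probe sets was under 0.05. A change is a difference in mean log2 signal, tumour minus normal, with its standard error (SE). The tissue itself also differed: all 7 measured adipocyte genes, all 7 endothelial genes and 7 of 8 fibroblast genes were called lower in tumours, and 5 of 10 epithelial genes were called higher and none lower. In bulk tissue, fewer cells of a type and less RNA per cell cannot be told apart.

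Chemokines with a CXC motif that bind Cxcr2 draw neutrophils, whereas other CXC chemokines, such as the ligands of Cxcr3, draw lymphocytes, and CC chemokines draw monocytes, eosinophils and lymphocytes. Among the interleukin receptors, shared chains combine with specific ones: Il6st (gp130) signals for interleukin 6 and interleukin 11, Il2rg (the common gamma chain) for interleukins 2, 4, 7 and 15 among others, and Il1rap for interleukin 1 and interleukin 33. Transcription of many chemokines is induced through NF-kB, which binds kB sites.

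The neighbouring chemokine genes Cxcl1, Cxcl2, Cxcl3 and Cxcl6 were all 4 higher in tumours. In the RefSeq gene table of assembly GRCr8, 36 members fell into 14 groups in which each gene starts within 1 Mb of the next, and among the 3 groups of 4 genes this was the one with every member called. The 250 bases before the annotated start of 3 of them are shown because these genes moved together. The sequences are from RefSeq (GRCr8), minus strand, read 5′ to 3′, with capitals marking matches to a kB motif spelled GGGNNTTTCC on either strand. Cxcl1 lies at chr14:17479322-17479571, Cxcl2 at chr14:17467256-17467505 and Cxcl6 at chr14:17596418-17596667.
Cxcl1: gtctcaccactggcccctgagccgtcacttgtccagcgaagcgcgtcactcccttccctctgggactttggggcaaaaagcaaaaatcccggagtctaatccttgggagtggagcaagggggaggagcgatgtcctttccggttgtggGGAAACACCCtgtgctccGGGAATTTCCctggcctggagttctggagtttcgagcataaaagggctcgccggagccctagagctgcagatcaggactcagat
Cxcl2: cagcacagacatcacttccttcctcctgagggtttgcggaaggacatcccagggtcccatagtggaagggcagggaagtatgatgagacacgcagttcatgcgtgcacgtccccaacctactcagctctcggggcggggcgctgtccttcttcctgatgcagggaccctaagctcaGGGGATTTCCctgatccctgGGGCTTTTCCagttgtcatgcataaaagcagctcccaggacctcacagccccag
Cxcl6: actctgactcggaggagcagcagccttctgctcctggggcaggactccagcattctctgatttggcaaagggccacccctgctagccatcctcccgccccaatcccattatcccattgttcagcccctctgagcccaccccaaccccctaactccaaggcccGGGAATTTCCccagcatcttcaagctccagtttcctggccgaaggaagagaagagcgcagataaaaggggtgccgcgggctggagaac
The motif was present in 1.3% of 33469 RefSeq promoters of this length. Among the 54 members with an entry in that promoter table it was present in 7, namely Cxcl1, Cxcl2, Cxcl6, Ccl20, Ccr3, Il1rn and Il6. A match of letters is a description of the window and not evidence of binding. The matches in Cxcl1 do not overlap each other, and the first of them is on the opposite strand.

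Cxcl6, a neutrophil-attracting chemokine of this cluster (probe set 1387648_at), had a signal of 114 at the lowest, 159 at the median and 246 at the highest among tumours, against 36.7, 80.8 and 125 among normal glands. The groups overlapped, with 19 of 24 tumours above every normal gland. The change was 0.99 (SE 0.13, adjusted p = 5.92e-08), a 1.99-fold rise. Cxcl1, another Cxcr2 ligand, ranged from 1 to 367 with a median of 123 in tumours, against 1 to 93.6 with a median of 59.1 in normal glands, and changed by 0.92 (SE 0.29, adjusted p = 0.00599). Its groups overlapped, with 14 of 24 tumours above every normal gland and 2 tumours and 4 normal glands at the floor. Cxcl2, likewise a Cxcr2 ligand, ranged from 49.9 to 268 with a median of 127 in tumours, against 34.5 to 115 with a median of 78.1 in normal glands. It was 1.87-fold higher (log2 0.90, SE 0.18, adjusted p = 4.68e-05). Cxcl3, closely similar in sequence to both, had a median of 299 in tumours (234 to 461), against 199 in normal glands (132 to 321), and changed by 0.62 (SE 0.10, adjusted p = 2.34e-06). Of its 4 probe sets 3 were called higher, and the fourth lay near the floor and was not called (0.01, SE 0.04). Because the genes of this cluster resemble one another, signal from one can reach the probes of another. Against the 3 glands not titled NewN, Cxcl2 (1.16) and Cxcl6 (0.65, adjusted p = 0.0179) were still called, while Cxcl1 (1.46, adjusted p = 0.0511) and Cxcl3 (0.24, adjusted p = 0.298) were not.

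Of the 71 members, 30 were called higher in tumours and 14 lower, and 27 were not called. Over all 10411 genes, 58.9% were called, 31.4% higher and 27.5% lower. The members' shares were 42.3% higher and 19.7% lower, and their median change was 0.17, against 0.02 over all genes. Most changes were small: 2 members were at least 2-fold higher (Il17b and Il18) and 5 were at least 2-fold lower (Ccl6, Il4r, Ccr1, Il6r and Il2rg). By role, 19 of 40 ligands were called higher and 6 lower, against 10 higher and 8 lower of 29 receptors. The interleukin receptor chains alone had more falls (7) than rises (5) among 20.

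Over all genes, the share of rises was lower among brighter genes, and the members are set beside genes of like level here. Where the mean signal over all arrays was under 100, 40.6% of 32 members and 38.4% of 2212 genes were called higher, while 12.5% and 12.7% were called lower. From 100 to 200, the shares higher were 42.9% of 21 members and 40.6% of 2737 genes. From 200 to 500, 54.5% of 11 members and 27.3% of 3706 genes were called higher. At 500 or more, 2 of 7 members and 16.9% of 1756 genes were called higher. The median change of all genes was 0.12 under 100 and -0.15 at 500 or more. In both bands under 200, which hold 53 of the 71 members, the members' share of rises was near that of all genes of like level. Of the members, 37 were over the floor on every array and 10 were at the floor on at least 18 arrays (Ccl11, Ccr1, Ccr2, Il1r1, Il2ra, Il6, Il7r, Il12a, Il13 and Il13ra2). No member was at the floor in all arrays of a group, and none of the 11 members read by several probe sets had probe sets called in opposite directions.

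**Figure D1:**
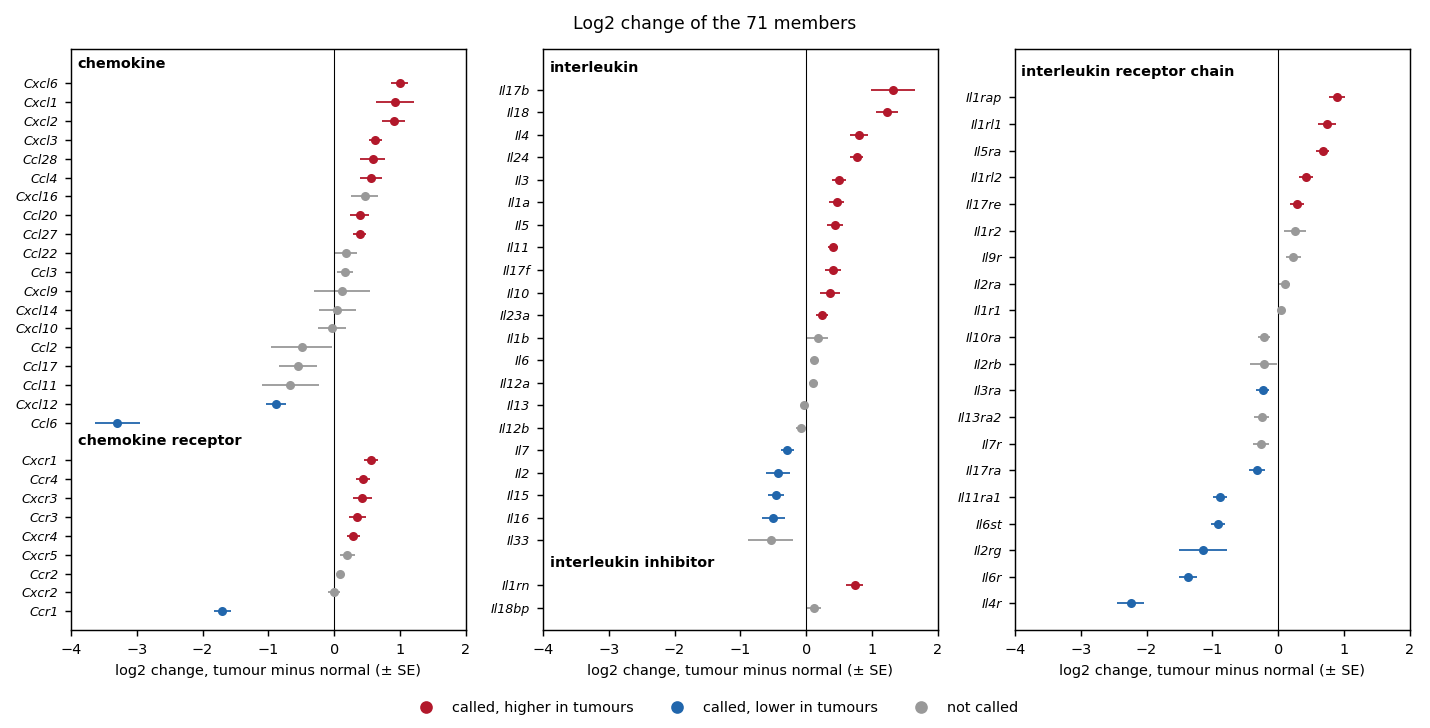
Log2 change of each of the 71 members, tumour minus normal, on the horizontal axis with bars of 1 SE, grouped by role and sorted by size. Red points are the 30 called higher, blue points the 14 called lower and grey points the 27 not called. Ccl6 (-3.29), Il4r (-2.24) and Ccr1 (-1.70) lie farthest left, and Il17b (1.32) and Il18 (1.23) farthest right.

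**Figure D2:**
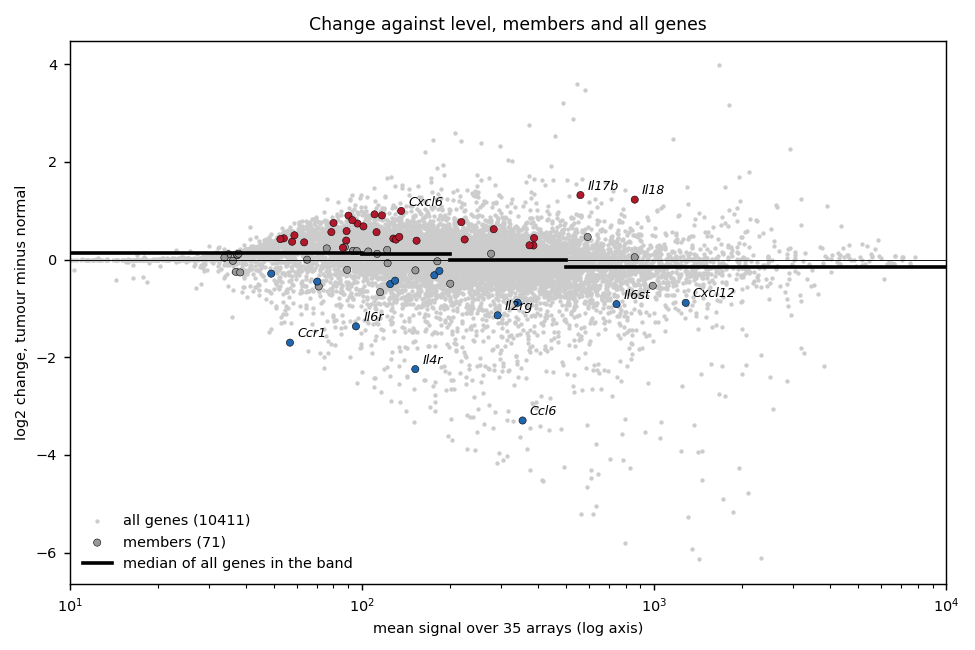
Log2 change (tumour minus normal, vertical axis) against mean signal over 35 arrays (horizontal, log axis) for all 10411 genes in grey and the 71 members coloured by their call. Black bars give the median change of all genes in 4 bands of level, from 0.12 in the dimmest to -0.15 in the brightest.

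Of the 19 chemokines, 8 were called higher and 2 lower, where 31.4% of all genes were higher and 27.5% lower. Ccl28, a chemokine of mucosal epithelium, had a median of 88.7 in tumours and 62.4 in normal glands (0.58, SE 0.19, adjusted p = 0.00933). Ccl4, a macrophage inflammatory protein, had a median of 118 in tumours and 67.5 in normal glands (0.56, SE 0.16, adjusted p = 0.00376). In normal glands the highest Ccl4 values were 174 in NewN6, 133 in X27.1N and 95.9 in NewN4. Ccl27, a skin-associated chemokine, changed by 0.38 (SE 0.10, adjusted p = 0.00119), and Ccl20, the ligand of Ccr6, by 0.39 (SE 0.14, adjusted p = 0.0209). Against the 3 glands not titled NewN, none of these was called, with changes of 0.62 for Ccl28, 0.42 for Ccl4, 0.47 for Ccl27 and 0.01 for Ccl20.

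Ccl6, a CC chemokine of rodents (probe set 1389123_at), fell most of all members. Its signal ranged from 1 to 970 with a median of 69.6 in tumours, against 434 to 1633 with a median of 858 in normal glands. Of the 24 tumours, 23 lay below every normal gland, and the exception was X22L at 970. The change was -3.29 (SE 0.34, adjusted p = 5.28e-10), and 7 tumours were at the floor. Cxcl12, the ligand of Cxcr4 and a product of stromal cells, ranged from 494 to 1793 with a median of 968 in tumours, against 1350 to 2673 with a median of 1693 in normal glands. It was 1.85-fold lower (-0.89, SE 0.15, adjusted p = 4.8e-06), with 19 of 24 tumours below every normal gland. The other probe sets for Cxcl12 were lower too, by -1.37 (SE 0.19) and -0.72 (SE 0.19).

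Markers of other cells moved with these falls. The summed signal of the 7 adipocyte genes was 205 to 3648 in tumours and 8366 to 23659 in normal glands, and Lep was at the floor in every tumour. That of the 8 fibroblast genes was 569 to 38115 in tumours and 20075 to 44477 in normal glands, with overlap. The 9 macrophage and monocyte genes, of which 5 were called lower and 2 higher, summed to 2972 to 13879 in tumours and 5616 to 12110 in normal glands. Their part in the falls of Ccl6 and Cxcl12, and of the receptors given next, was not tested. The tumour with the highest Ccl6, X22L, also had the highest fibroblast and macrophage sums and the lowest epithelial sum, 1055 against 14383 or more in the other tumours.

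The remaining 9 chemokines were not called. Cxcl16, which is also a membrane-bound scavenger receptor, changed by 0.46 (SE 0.21, adjusted p = 0.0558). Ccl3 changed by 0.16, Ccl22 by 0.18, Cxcl9 by 0.12, Cxcl14 by 0.05 and Cxcl10 by -0.04, all with adjusted p-values of 0.25 or more. Ccl2, which draws monocytes, changed by -0.50 (SE 0.47, adjusted p = 0.378), Ccl17 by -0.55 (SE 0.28, adjusted p = 0.0953, and 0.13 without NewN4, NewN6 and X27.1N) and Ccl11, which draws eosinophils, by -0.67 (SE 0.43, adjusted p = 0.188). The large standard errors of Ccl2 and Ccl11 came with a wide spread among tumours, given further on.

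**Figure D3:**
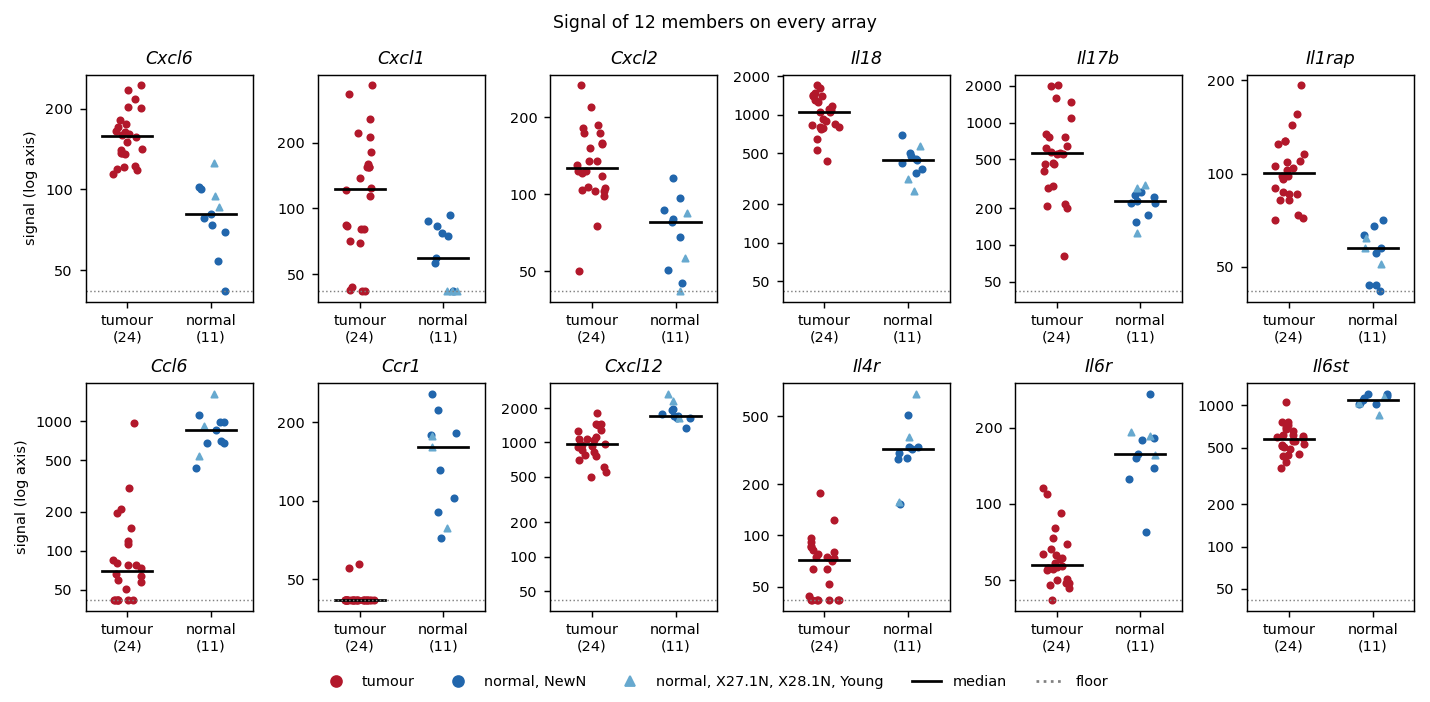
Signal (log axis) of 12 members on every array, the 24 tumours to the left (red) and the 11 normal glands to the right (blue circles for NewN, light blue triangles for X27.1N, X28.1N and Young), with the group median as a black bar and the floor of 41.6 as a dotted line. The upper row holds 6 members called higher in tumours and the lower row 6 called lower, and the groups do not overlap for Il1rap and Ccr1.

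Among the 9 chemokine receptors, 5 were called higher, 1 lower and 3 not called, where 31.4% of all genes were higher and 27.5% lower. Ccr1, a receptor of monocytes and neutrophils that binds Ccl3 and other CC chemokines (probe set 1370083_at), ranged from 1 to 57.5 with a median of 7.27 in tumours, against 72.1 to 258 with a median of 161 in normal glands. All 24 tumours lay below every normal gland, as they did for 2.25% of all genes. The change of -1.70 (SE 0.13, adjusted p = 1.09e-13) is limited by the floor, at which 22 tumours lay. Its neighbours within 1 Mb were not lower: Ccr3, the eotaxin receptor, was higher (0.35, SE 0.13, adjusted p = 0.0162) and Ccr2, the Ccl2 receptor, was at the floor in 17 tumours and 9 normal glands and not called (0.09).

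The 4 other rises were small. Cxcr1 had a median of 87.0 in tumours and 59.5 in normal glands (0.56, SE 0.11, adjusted p = 5.27e-05). Ccr4, a receptor of T cells, had a median of 62.6 in tumours and 38.4 in normal glands (0.43, SE 0.11). Both were called lower in NewN glands than in the other normal glands. In NewN glands, the other glands and tumours, Cxcr1 averaged 52.1, 80.8 and 87.2, and Ccr4 averaged 31.8, 54.4 and 61.5. Cxcr3, the receptor of Cxcl9 and Cxcl10, had a median of 134 in tumours and 84.4 in normal glands (0.43, SE 0.14, adjusted p = 0.00954), with NewN6, at 239, above every tumour. Cxcr4 changed by 0.29 (SE 0.10, adjusted p = 0.0112), but the name of its probe set (1389244_x_at) marks probes that can match other transcripts, and the other probe sets gave 0.00 and 0.09 and were not called. Cxcr2 (-0.00, SE 0.09) and Cxcr5 (0.20, SE 0.11) were not called. Cxcr2, the receptor of the Cxcl1, Cxcl2 and Cxcl6 ligands, had a median of 63.5 in tumours and 63.9 in normal glands. Of 8 granulocyte markers 2 were measured: S100a8 was at the floor on every array, and S100a9 was not called.

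Of the 21 interleukins, 11 were called higher and 4 lower, where 31.4% of all genes were higher and 27.5% lower. The interleukins alone were not set beside genes of like level. Il17b, a member of the interleukin 17 family (probe set 1376445_at), ranged from 81.9 to 2037 with a median of 560 in tumours, against 125 to 308 with a median of 230 in normal glands. Of the tumours, 18 lay above every normal gland and X22L lay below every one. The change was 1.32 (SE 0.33, adjusted p = 0.00101), 2.50-fold, and it was 1.29 and not called against the 3 glands not titled NewN (adjusted p = 0.171). Il18, a cytokine of the interleukin 1 family that epithelial cells and macrophages make (probe set 1369665_a_at), ranged from 435 to 1706 with a median of 1050 in tumours, against 255 to 694 with a median of 445 in normal glands. It was 2.34-fold higher (1.23, SE 0.17, adjusted p = 1.39e-07), with 21 of 24 tumours above every normal gland, and the lowest tumour was again X22L. Its secreted inhibitor Il18bp had a median of 119 in tumours and 96.7 in normal glands and was not called (0.12, SE 0.11). Epithelial markers moved with both rises: their sum was 1055 to 32017 in tumours, with a median of 20618, against 4946 to 15549 in normal glands, with a median of 12441, and their part was not tested.

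Of the interleukins of the type 2 response, Il4 and Il5 were called higher and Il13 was not called. Il4, the cytokine that directs that response, had a median of 111 in tumours (65.2 to 147), against 55.0 in normal glands (37.5 to 103), and changed by 0.81 (SE 0.14, adjusted p = 6.57e-06). Il5, an eosinophil growth factor, changed by 0.44 (SE 0.13) and Il3, a growth factor of mast cells and other myeloid cells, by 0.50 (SE 0.11). These 3 genes and Il13, which was at the floor in 19 tumours and 7 normal glands and was not called (-0.03, SE 0.04), are neighbours within 1 Mb. Il24, of the interleukin 10 family, had a median of 247 in tumours (166 to 421) and 143 in normal glands (109 to 216) and changed by 0.77 (SE 0.10, adjusted p = 1.5e-07). Its neighbour Il10, an anti-inflammatory cytokine, changed by 0.36 (SE 0.15, adjusted p = 0.0413), the call nearest the threshold among rises, which was lost in 8 of 15 alternative settings. Il3, Il4, Il5 and Il24 were all called lower in NewN glands than in the other normal glands, as given further on. For Il4 the means were 50.7 and 92.3, beside 107 in tumours.

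The other rises among interleukins were those of Il1a (0.46, SE 0.11), Il11 (0.41, SE 0.08), Il17f (0.41, SE 0.12) and Il23a (0.24, SE 0.09). A second probe set for Il1a, with a mean signal of 34.6, under the floor, was not called (0.02, SE 0.03). Il1a and Il1b encode the agonists of the interleukin 1 receptor. Il1b had a median of 88.9 in tumours and 76.3 in normal glands and was not called (0.17, SE 0.16, adjusted p = 0.361). NewN4 (112), NewN6 (224) and X27.1N (130) were its 3 highest normal glands, and without them it was called higher (0.48, adjusted p = 0.00279). Il1rn, the secreted antagonist of that receptor, had a median of 107 in tumours (71.7 to 240) and 69.4 in normal glands (33.3 to 90.1), with 19 of 24 tumours above every normal gland. It changed by 0.74 (SE 0.13, adjusted p = 9.19e-06). Il6 was at the floor in 12 tumours and 10 normal glands and was not called (0.12, SE 0.06, adjusted p = 0.0887). With a floor at the 5th percentile it was called higher (0.40, adjusted p = 0.0047). Its mean signal was 41.7 in tumours and 29.7 in normal glands, near the lower end of the signal range. That lower end differed between the groups, as given above, and its part in this call was not tested. Il12a (0.11), Il12b (-0.08) and Il33 (-0.54, SE 0.34) were not called either.

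The 4 falls among interleukins were all under 2-fold. Il15, which sustains NK cells and memory T cells, had a median of 60.4 in tumours (36.8 to 128) and 85.7 in normal glands (56.0 to 122) and changed by -0.45 (SE 0.12, adjusted p = 0.00184). Il2, a T cell growth factor, changed by -0.43 (SE 0.18, adjusted p = 0.0428), a call lost in 5 of 15 alternative settings, among them the title number as block (-0.40, adjusted p = 0.061). Il7, a growth factor of lymphocyte precursors, changed by -0.29 (SE 0.10, adjusted p = 0.0142). Il16, a T cell attractant, changed by -0.50 (SE 0.17, adjusted p = 0.0131), and that value rested on 3 glands described below.

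Of the 20 interleukin receptor chains, 5 (25%) were called higher and 7 (35%) lower, against 31.4% and 27.5% of all genes. Il1rap, the accessory chain of the interleukin 1 and interleukin 33 receptors (probe set 1387507_at), ranged from 70.9 to 193 with a median of 100.4 in tumours, against 38.6 to 70.7 with a median of 57.3 in normal glands. All 24 tumours lay above every normal gland, as they did for 0.279% of all genes, though the gap was narrow. The change was 0.90 (SE 0.12, adjusted p = 1.12e-07). Il1rl1, the interleukin 33 receptor, had a median of 92.6 in tumours and 54.9 in normal glands and changed by 0.75 (SE 0.14, adjusted p = 2.07e-05). The other probe set for it (1387273_at) gave 0.62 and was not called (SE 0.44, adjusted p = 0.235). That probe set had the higher mean signal over all arrays, 124 against 80.0, but the lower mean of floored log2 signal, by which probe sets were chosen. Il1rl2, the interleukin 36 receptor, changed by 0.42 (SE 0.11), while its neighbours Il1r1, at the floor in 18 tumours and 10 normal glands, and Il1r2, a decoy receptor, were not called (0.04 and 0.26). Il5ra changed by 0.68 (SE 0.10, adjusted p = 7.87e-07) and Il17re by 0.29 (SE 0.11). Of the 2 probe sets for Il17re, only that 1 was called.

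The receptors of interleukin 6 and interleukin 11 fell together. Il6r, the chain that binds interleukin 6, ranged from 38.3 to 115 with a median of 57.5 in tumours, against 77.3 to 273 with a median of 158 in normal glands. It was 2.58-fold lower (-1.37, SE 0.14, adjusted p = 4.75e-10), with 20 of 24 tumours below every normal gland. Il6st, the shared signalling chain, ranged from 362 to 1057 with a median of 576 in tumours, against 854 to 1212 with a median of 1096 in normal glands, and 23 of 24 tumours lay below every normal gland. Its change was -0.91 (SE 0.11, adjusted p = 6.41e-09) and its other probe sets gave -1.31 and -1.42. Il11ra1, the chain that binds interleukin 11, had a median of 260 in tumours (191 to 459) and 511 in normal glands (377 to 576) and changed by -0.88 (SE 0.10, adjusted p = 4.24e-09). All 3 were called against either set of normal glands.

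Il4r, the receptor chain for interleukin 4 and interleukin 13, ranged from 14.2 to 176 with a median of 71.8 in tumours, against 153 to 678 with a median of 320 in normal glands. Only X15, at 176, reached the range of the normal glands. The change was -2.24 (SE 0.21, adjusted p = 2.67e-11), a 4.73-fold fall, and 7 tumours were at the floor. Its ligand Il4 was called in the opposite direction, and its ligand Il13 was not called. The mean signal of Il4 was 107 in tumours, 50.7 in NewN glands and 92.3 in the other normal glands, so its rise depended on the glands used. Il17ra (-0.32, SE 0.12) and Il3ra (-0.23, SE 0.09) fell slightly. Il9r, Il2ra, Il2rb, Il7r, Il10ra and Il13ra2 were not called, with changes of 0.23, 0.10, -0.22, -0.26, -0.21 and -0.25.

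Il2rg, the common gamma chain, ranged from 75.4 to 500 with a median of 123 in tumours, against 149 to 2125 with a median of 173 in normal glands, and changed by -1.14 (SE 0.36, adjusted p = 0.00672). The normal glands fell into separate ranges: NewN4 at 1207, NewN6 at 2125, X27.1N at 1513, and the 8 others at 149 to 218. The same 3 were the highest normal glands for Il2rb (268, 560 and 354), for Il16 (279, 412 and 304) and for Il7r (78.3, 153 and 60.0). The signals of 15 T and NK cell genes summed to 6503 (NewN4), 11822 (NewN6) and 7379 (X27.1N), against 1654 to 2333 in the other normal glands and 1601 to 2953 in tumours. B and plasma cell genes, of which 2 were measured, summed to 1540 to 2410 in the same 3 glands and 102 to 146 in the 8 others. Without these 3 glands, Il2rg (-0.27, adjusted p = 0.369), Il16 (-0.06, adjusted p = 0.655), Il17ra (-0.11, adjusted p = 0.447) and Il7 (-0.10, adjusted p = 0.383) were not called, and the members divided into 29 higher and 10 lower. The falls of Ccl6 (-3.51), Ccr1 (-2.00), Il4r (-2.12) and Il6r (-1.22) were still called.

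**Figure D4:**
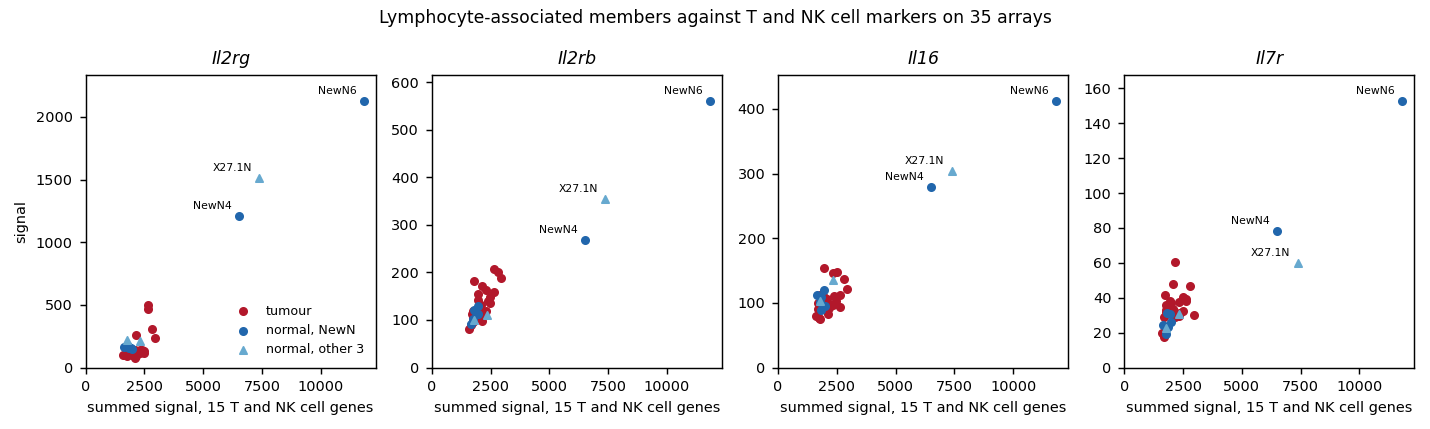
Signal of Il2rg, Il2rb, Il16 and Il7r (vertical axes) against the summed signal of 15 T and NK cell genes (horizontal axes) on each of the 35 arrays, tumours in red, NewN glands in blue and the other normal glands as light blue triangles. NewN4, NewN6 and X27.1N lie above every other array on both axes, except that X27.1N (60.0) lies within the range of the tumours for Il7r, while the 8 other normal glands lie among the tumours on the horizontal axis.

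The normal glands also differed by title. Between the 8 NewN glands and the 3 others, 11 members (15.5%) were called, against 20.5% of all genes. This comparison and that of the tumours share the normal glands, so their values stand side by side here and are not independent. Lower in NewN glands were 8 members. For Il4 the signal averaged 50.7 ± 10.8 (SD, n = 8) in NewN glands and 92.3 ± 13.2 (SD, n = 3) in the others, a difference of -0.85 (SE 0.16, adjusted p = 0.00607), beside a change of 0.81 in tumours. Cxcr1 averaged 52.1 ± 11.1 in NewN glands and 80.8 ± 14.6 in the others, a difference of -0.63 beside 0.56 in tumours. The differences were -0.53 for Cxcl3 (0.62 in tumours), -0.48 for Il24 (0.77), -0.46 for Il5 (0.44), -0.41 for Il11 (0.41), -0.38 for Il3 (0.50) and -0.36 for Ccr4 (0.43). Higher in NewN glands were Cxcl16 (582 ± 101, against 221 ± 71.7 in the others, a difference of 1.43), Cxcl1 (69.0 ± 23.3, against 14 ± 11.4, a difference of 0.74) and Il15 (93.5 ± 12.5, against 65.1 ± 8.21, a difference of 0.52).

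Against the 3 other glands alone, 6 members were called higher and 11 lower, of which 5 and 9 were among the 30 and the 14. Of all genes 6.85% were called higher and 11.1% lower in that smaller comparison. Cxcl16 was called higher only there among the choices of normal glands (1.5, adjusted p = 0.000793), against 0.07 with the NewN glands alone. Across the 15 alternative settings, the members called higher in each were Cxcl2, Cxcl6, Il18 and Il1rap, and those called lower in each were Ccl6, Ccr1, Cxcl12, Il4r, Il6r, Il6st and Il11ra1.

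Tumours differed widely from one another in a few members. The SD of log2 signal among tumours was largest for Ccl2 (1.51), Ccl11 (1.39), Cxcl9 (1.28), Il33 (1.16), Ccl6 (1.12) and Il17b (1.11), against a median over members of 0.34. Ccl2 was 1687 in X15, 623 in X27 and 542 in X25L, with a median of 93.1 over the tumours and 8 tumours at the floor. Normal glands ranged from 66.9 to 589 for it. Ccl11 was highest in the same 3 tumours, at 1325 in X15, 607 in X25L and 423 in X27, while 18 tumours were at the floor. Ccl17, which draws T cells, was also highest in these 3, at 263, 84.5 and 77.7 in X15, X27 and X25L.

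Each of those tumours ranked high for some list of markers of other cells. X15 had the highest adipocyte sum among tumours (3648) and the second highest macrophage sum (9834), X25L the third highest fibroblast sum (22850.4), and X27 the highest mast cell sum (3449). These lists differed by tumour: the mast cell sum was 736 in X25L and the adipocyte sum 438 in X27. X22L, with the highest fibroblast and macrophage sums, had Ccl11 at 4.40 and Ccl2 at 330. The part of such cells in these values was not tested. The probe set of Il1rl1 that was not called was at 1836 in X22L, 445 in X15, 421 in X25L and 415 in X27, and at 108 or less in the other tumours. Cxcl9, an interferon-induced ligand of Cxcr3, reached 1103 in X6 and 909 in X26, and among normal glands 1530 in NewN6. Il33, an alarmin stored in nuclei, ranged from 59.8 in X22L to 2288 in X29.1, against 738 to 1372 in normal glands.

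**Figure D5:**
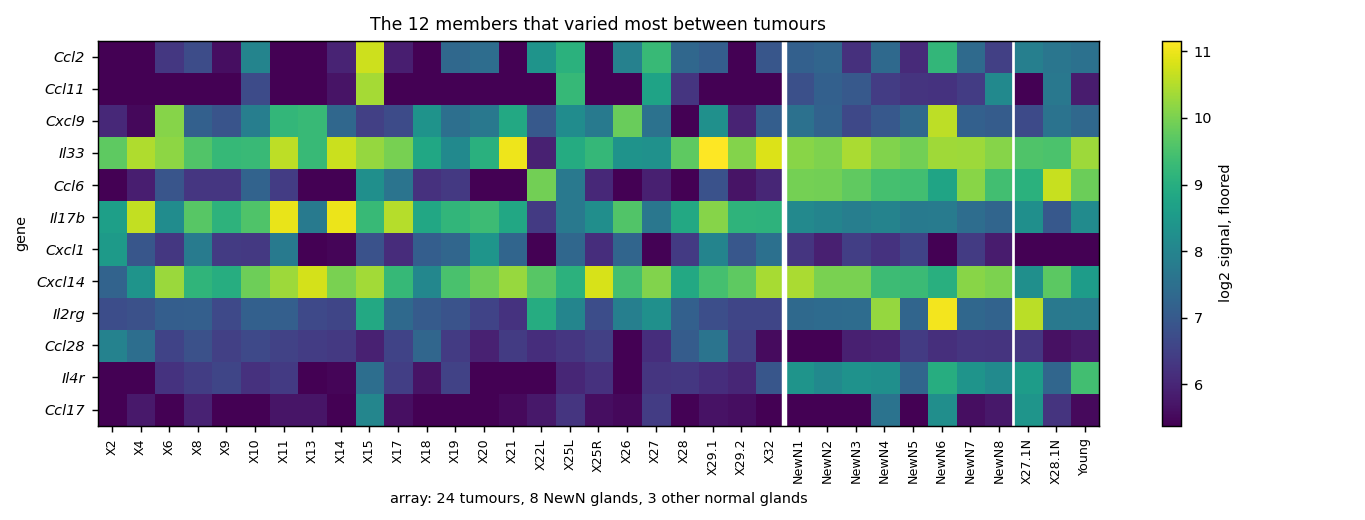
Floored log2 signal (colour) of the 12 members with the largest SD among tumours (rows) on each array (columns), the 24 tumours left of the thick white line, then the 8 NewN glands, with the 3 other glands at the right. Ccl2 and Ccl11 are bright in X15, X25L and X27, and Il2rg is bright in NewN4, NewN6 and X27.1N.

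Across the 24 tumours, 40 pairs of ligands, receptors and partner chains were listed, of which 16 had both genes among the members and above the floor in at least 18 tumours. After adjustment over the 16, 2 pairs passed by Pearson correlation. Il2rb and Il2rg, chains of 1 receptor, gave Pearson r = 0.69 (permutation p = 0.0001, adjusted p = 0.0016) and Spearman rho = 0.68 (permutation p = 0.00028, adjusted p = 0.00448), with r = 0.63 without X32 and X15. Il15 and Il2rb, a ligand and a chain of its receptor, gave r = 0.54 (permutation p = 0.00597, adjusted p = 0.0478) and rho = 0.63 (permutation p = 0.00141, adjusted p = 0.011), with r = 0.65 without X2 and X17. Il1b and Il1rn passed by rank only, with rho = 0.61 (permutation p = 0.00206, adjusted p = 0.011) and r = 0.36 (permutation p = 0.0806, adjusted p = 0.322). The remaining 13 did not pass by either measure; Il6r and Il6st, which both fell between the groups, gave r = 0.29 (permutation p = 0.173, adjusted p = 0.34) and rho = 0.16 (permutation p = 0.451, adjusted p = 0.555) within tumours.

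Genes of the same pathways outside the symbol rule were counted from fixed lists. Of 15 measured related cytokines, 7 were called higher and 2 lower, with Spp1 (osteopontin) at 2.75, Pf4 (platelet factor 4, a CXC chemokine) at -2.13 and Tgfb1 at -1.07. Of 13 related receptors, 3 were higher and 6 lower. Ackr3, a scavenging receptor that also binds Cxcl12, had a median of 43.2 in tumours (12.4 to 261) and 765 in normal glands (390 to 958) and changed by -3.37 (SE 0.26, adjusted p = 5.15e-13). Csf1r, the receptor of macrophage colony-stimulating factor, changed by -1.64. Of 16 JAK, STAT and SOCS genes, 2 were higher and 5 lower, with Ptpn11 at -0.52, Stat5b at -0.50 and Stat6, which relays interleukin 4 signals, at -0.48. Of 13 genes of NF-kB, MyD88 and IRAK signalling, 1 was higher and 8 lower, led by Nfkbia, the NF-kB inhibitor, at -1.11 (SE 0.20, adjusted p = 1.31e-05), Irak1 at -0.62 and Ikbkb at -0.54. Read against 31.4% higher and 27.5% lower over all genes, these shares are descriptions of the lists and no test of them was made.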

How the data were processed

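The deposited values are linear intensity signals, one per probe set and array, and how the authors computed and scaled them is not given in the sources used here. From these values, 57 control probe sets were left out, leaving 15866, and values under the 10th percentile were set to that floor before log2. Symbols came from the platform annotation: 12783 probe sets carry 1 symbol, 312 several (not named, 2 of them matching the rule) and 2771 none. Each gene is represented by the probe set with the highest mean floored log2 signal. Taking the highest mean signal instead, an alternative added after the data were seen, changes the tumour call of Il1rl1 alone among the members and gives 12 instead of 11 calls between the gland sets. The rule matched 73 symbols before Ccl5 and Cxcl13 were left out, and all 71 members matched RefSeq by Entrez identifier under the same symbol. The deposited scaling was kept, and the highest correlation between arrays was 0.987.

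Groups came from the source label, the gland subsets from titles. Tumours and normal glands, and NewN and other glands, were compared in limma 3.58.1 with R 4.3.3 (lmFit, eBayes with trend and robust estimation, no covariate), with Benjamini-Hochberg adjustment over all probe sets. On simulated arrays of the 15866 probe sets the tumour comparison recovered 38% of 1.25-fold, 90% of 1.5-fold and 100% of 2-fold and 4-fold changes. The simulated noise was normal and independent. Only 200 probe sets were changed, while 9238 were called in the data, so the adjustment was stricter in the simulation and recovery can differ. Changes were placed only in probe sets whose normal mean was more than 2-fold above the floor, and the most variable probe sets were left out. Recovery for dimmer or more variable genes was therefore not measured. Pairs were tested across tumours by two-sided permutation with 100000 resamples (scipy 1.17.1).

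The members, lists, pairs and most alternatives were chosen with earlier results of these data known. Named members were the 12 largest rises, the 12 largest falls, the 8 brightest and a listed panel, 42 in all; others were named after their values were seen. Alternatives covered scaling, floor, dim probe sets, spread model, array weights, title number as block, probe set per gene and the glands or tumours used. Precision is limited by the number of arrays.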

Additional observations from a re-analysis of the deposited data

Results flagged for a closer look

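Within the 8 NewN glands, 6 of the 42 named members had 1 gland far from the other 7 on the floored log2 scale, by a test that chance passes in about 1 of 20 groups. In 5 of them the gland was NewN6. Its signal was 589 for Ccl2 (66.9 to 167 in the other NewN glands), 137 for Ccl3 (75.9 to 88.8), 665 for Cxcl10 (107 to 154), 122 for Il15 (83.1 to 99.3) and 50.7 for Ccr2 (26.2 to 42.6, at or close to the floor). NewN6 also had the highest T and NK cell sum of all 35 arrays, 11822, and its part in these values was not tested. The last was Cxcl16 in NewN8, at 823, against 506 to 598 in the other NewN glands.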

How the results depend on the processing

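The count of members called higher was 25 to 34 and that called lower 10 to 16 in 14 of the 15 alternatives, beside 30 and 14. With only the 3 other normal glands, the counts were 6 and 11. For named members, 581 of the recomputed values kept their direction and their side of the threshold, 38 lost and 9 gained a call, and none changed direction with a call. With the title number as a replicate block (correlation 0.324), 31 members were higher and 15 lower; Il2 lost its call (-0.40, adjusted p = 0.061), Cxcl16 was called higher (0.45, adjusted p = 0.0485), and Il10ra and Il13ra2 were called lower. Title numbers were shared by tumours X25L and X25R and by tumours X29.1 and X29.2. They were also shared by tumour X27 and gland X27.1N and by tumour X28 and gland X28.1N. The labels do not say that a title number marks an animal. The count between NewN and other glands was 11, against 7 with the floor at the 20th percentile and 4 with array weights, the lowest of its alternatives. Of the correlated pairs 2 passed, against 1 under quantile normalization, 1 with the floor at the 20th percentile, 1 with 1 tumour for each title number, and 4 without X22L, where Cxcl10 with Cxcr3 (r = 0.61) and Il1b with Il1rn (r = 0.54) also passed. The cause of these shifts was not tested. With only the 3 other normal glands, the number of glands and their identity both changed and cannot be told apart. Signal near the floor limits what can be seen of the 10 members at the floor on at least 18 arrays.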
